A study of Mus musculus with 27 samples.

Results

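The genes described here act in the nucleolus and in ribosome assembly, and are followed across all 9 groups of an RNA-seq study of limb bud formation from mouse embryonic stem cells. They are Ncl, Npm1, Fbl, Nop56, Nop58, Dkc1, Nolc1, Polr1a, Polr1b and Myc, 10 of the 23279 genes in the deposited table, and each was found there by its symbol. The genes were chosen by name with the CPM of these same libraries in view and with no stated threshold, so their levels are given as a description and carry no p-values. All 10 passed the filter on low values in every comparison. The study asked how far limb bud-like tissues made from mouse embryonic stem cells (ES–LBs) match limb buds (LBs) of the embryo.

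ES–FLB (forelimb type) and ES–HLB (hindlimb type) cells came from the line EB5 Hand2::GFP +/-, which carries a fluorescent reporter in 1 copy of Hand2, a gene of limb bud mesenchyme. Aggregates of both types grew with BMP4 and Matrigel first. They received retinoic acid for the forelimb type or a retinoic acid antagonist for the hindlimb type. Later both had hydrocortisone and methylcellulose in the medium, with the BMP inhibitor LDN193189 and then Wnt3 for part of that time. The aggregates were pooled and sorted for Hand2::mEGFP on day 9. The sorted cells came from a single knock-in line. The embryonic groups were cut from untreated Slc:ICR embryos with no sorting described, and hold every cell type of the tissue: early forelimb and hindlimb buds (early FLBs and early HLBs, E10.0 in the labels), FLBs and HLBs at E10.5, and from the same day tail bud (TB), heart (Ca) and branchial arch (BA). The paper places the early FLBs before and the early HLBs after the stage in the labels. Each group had 3 libraries. The methods give 3 embryos as the source of the dissected tissues and pooled aggregates as that of the sorted cells, but not whether each library was a separate embryo or culture, so the spread may be technical. Replicate 2 of the E10.5 HLBs lacks values on several chromosomes and was left out, which left 26 libraries.

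A ribosome begins in the nucleolus, where RNA polymerase I copies the ribosomal DNA into a long precursor RNA. Small nucleolar RNPs of the box C/D class guide methylation of this precursor and those of the box H/ACA class guide its pseudouridylation, while many assembly factors fold it, cut it and load ribosomal proteins onto it. The demand for ribosomes follows cell growth, and Myc proteins are known to raise the transcription of nucleolar genes in many growing cells.

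Values are CPM, the reads of a gene per 1000000 reads of its library, scaled between libraries, and differences are on the scale log2(scaled CPM + 0.5) with the standard error (SE) from limma, a linear model fitted across all genes. Estimated depth was 19643840 to 22143370 reads in the early LBs, 5543630 to 5909430 in the E10.5 LBs and 6570290 to 8542320 elsewhere. The lowest level of any member in any library, 25.3 CPM for Myc in a BA library, lay far above the limit of 3 reads, which was at most 0.541 CPM. Depth and stage of the limb buds cannot be told apart, as no E10.5 LB library was as deep as an early one. No library of the ES–LBs or of the other tissues was as deep as an early LB one either. Depth therefore cannot be told apart from any difference between these groups and the early LBs. These were bulk samples, in which fewer cells that express a gene and less RNA per cell cannot be told apart. The labelled tissues carried their own markers: summed levels of 7 cardiac genes were 22470 CPM in Ca and at most 67.9 CPM elsewhere, of 8 tail bud genes 301 CPM in TB and at most 55.4 CPM elsewhere, and of 5 arch genes 363 CPM in BA and at most 84.2 CPM elsewhere.

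The members shared a single order across groups to a large degree. The early FLBs had the highest mean of all 10 genes, and the early HLBs ranked next for 9 of them, with Polr1a the exception. TB was among the 4 highest groups for all 10 genes. ES–FLB had the lowest mean of 6 genes (Ncl, Npm1, Fbl, Nop56, Nop58 and Dkc1), Ca that of 3 (Nolc1, Polr1a and Polr1b) and BA that of Myc. With CPM as deposited, ES–FLB was lowest for 4 (Ncl, Fbl, Nop58 and Dkc1) and Ca for 5, and the early FLBs were still highest for all 10. The highest group mean was 2.14 to 3.80 times the lowest. Together the members made up 0.935% ± 0.0074 of the deposited CPM across early FLBs (SD, n = 3), 0.795% ± 0.055 in the early HLBs, 0.656% ± 0.029 in TB, 0.357% ± 0.0018 in ES–HLB, 0.323% ± 0.0049 in ES–FLB and 0.313% ± 0.029 in Ca.

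**Figure D1:**
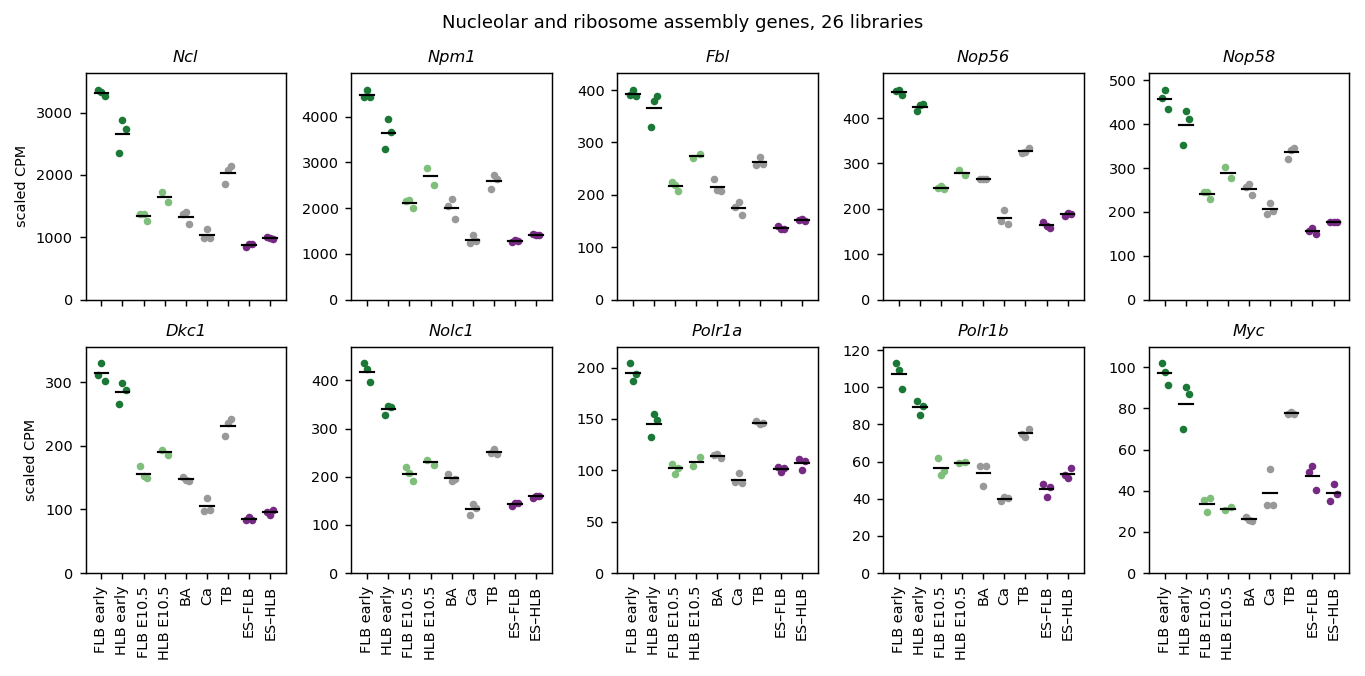
Scaled CPM (y axis, linear, from 0, own range in each panel) of the 10 members in 26 libraries, with 1 point for each library and a line at the group mean. Dark green marks early LBs, light green E10.5 LBs, grey other E10.5 tissues and purple ES–LBs. The early FLB points are the highest in every panel, and Myc alone has its lowest points in BA.

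Ncl encodes nucleolin, an RNA-binding protein that acts in transcription and processing of the ribosomal precursor. It lies on chromosome 1 of GRCm38 (mm10) from 86344719 to 86359455. Its levels were 3365, 3328 and 3276 CPM across early FLBs, 2356, 2889 and 2738 CPM across early HLBs, 1375, 1375 and 1261 CPM in the E10.5 FLBs, and 1720 and 1564 CPM in the E10.5 HLBs. TB gave 1854, 2086 and 2146 CPM, BA 1366, 1411 and 1216 CPM, and Ca 994, 1137 and 983 CPM. In ES–FLB the levels were 849, 889 and 885 CPM and in ES–HLB 996, 989 and 978 CPM. Each group in the order early FLB, early HLB, TB and E10.5 HLB was free of overlap with the next, whereas the E10.5 FLBs overlapped BA and Ca overlapped ES–HLB. The ES–FLB libraries were below those of every other group.

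Npm1 encodes nucleophosmin, a chaperone of the granular part of the nucleolus that takes part in late assembly and export of the subunits. The gene is at chromosome 11, 33152498 to 33164142. Its levels were 4439, 4583 and 4428 CPM across early FLBs, 3295, 3956 and 3675 CPM across early HLBs, 1254, 1301 and 1289 CPM in ES–FLB and 1428, 1402 and 1400 CPM in ES–HLB. Unlike Ncl, Npm1 had a higher mean in the E10.5 HLBs (2876 and 2513 CPM) than in TB (2420, 2714 and 2631 CPM), though these groups overlapped. Ca (1231, 1421 and 1282 CPM) overlapped both ES–LB types. Nucleophosmin has processed pseudogenes in the mouse genome, and how reads shared with them were assigned was not given in the sources used here.

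Fbl, Nop56 and Nop58 encode the fibrillarin methyltransferase and the paired scaffold proteins of the box C/D particles. Fbl (chromosome 7, 28168893 to 28179269) measured 391, 400 and 389 CPM across early FLBs, 329, 380 and 388 CPM across early HLBs, 140, 135 and 135 CPM in ES–FLB, and 151, 154 and 150 CPM in ES–HLB. Nop56 (chromosome 2, 130274367 to 130279313) measured 460, 462 and 451 CPM across early FLBs, 415, 428 and 431 CPM across early HLBs, 172, 163 and 158 CPM in ES–FLB, and 183, 191 and 190 CPM in ES–HLB. Nop58 (chromosome 1, 59684961 to 59711510) measured 459, 478 and 436 CPM across early FLBs, 353, 431 and 412 CPM across early HLBs, 156, 164 and 151 CPM in ES–FLB, and 176, 177 and 176 CPM in ES–HLB. The 3 genes thus had the same 2 highest groups and the same lowest group, with all libraries of an early LB type above all of the corresponding ES–LB type and ES–HLB above ES–FLB without overlap. At E10.5, the means of the 3 genes in the FLBs, HLBs, BA and TB lay between 216 and 336 CPM, and those in Ca at 175 to 206 CPM.

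Dkc1 encodes dyskerin, the pseudouridine synthase of box H/ACA particles, which is also a part of telomerase. Nolc1 encodes Nopp140, which accompanies small nucleolar RNPs. Dkc1 (chromosome X, 75095854 to 75109776) measured 311, 329 and 301 CPM across early FLBs, 266, 299 and 288 CPM across early HLBs, 82.7, 88.0 and 83.7 CPM in ES–FLB and 96.2, 91.9 and 99.2 CPM in ES–HLB. Nolc1 (chromosome 19, 46075847 to 46085543) measured 435, 423 and 397 CPM across early FLBs, 328, 346 and 345 CPM across early HLBs, 140, 145 and 145 CPM in ES–FLB and 156, 160 and 161 CPM in ES–HLB. The genes differed in Ca: Dkc1 was at 97.9, 118 and 98.9 CPM, above ES–FLB, and Nolc1 at 121, 144 and 134 CPM, overlapping ES–FLB and with the lowest mean of the 9 groups.

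Polr1a and Polr1b encode the 2 largest subunits of RNA polymerase I. Polr1a (chromosome 6, 71909053 to 71979435) measured 204, 187 and 193 CPM across early FLBs and 132, 154 and 149 CPM across early HLBs. TB, at 148, 145 and 146 CPM, overlapped the early HLBs. The next 5 groups in order, BA, the E10.5 HLBs, ES–HLB, the E10.5 FLBs and ES–FLB, had means of 101 to 114 CPM, and each overlapped its neighbour. Polr1b (chromosome 2, 129100970 to 129128060) measured 113, 109 and 99.3 CPM across early FLBs, 92.7, 84.8 and 89.8 CPM across early HLBs, 47.8, 40.8 and 46.4 CPM in ES–FLB and 52.6, 51.3 and 56.3 CPM in ES–HLB. Ca had the lowest means of both, 90.9 CPM ± 5.3 for Polr1a and 40.0 CPM ± 1.2 for Polr1b (SD, n = 3).

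Myc (chromosome 15, 61985341 to 61990361), a transcription factor that binds DNA with its partner Max, had an order of its own. It measured 102, 97.6 and 91.5 CPM across early FLBs, 69.9, 90.3 and 86.8 CPM across early HLBs and 77.4, 78.1 and 77.1 CPM in TB. In ES–FLB it was at 48.9, 51.9 and 40.2 CPM and in ES–HLB at 35.0, 43.3 and 38.4 CPM. The E10.5 FLBs were at 35.2, 29.7 and 36.3 CPM, the E10.5 HLBs at 30.6 and 32.1 CPM, Ca at 32.9, 50.7 and 33.1 CPM and BA at 27.3, 25.8 and 25.3 CPM. Early LBs and TB were thus high in Myc, with no library of another group reaching theirs, and both ES–LB types were above the E10.5 LB of their type, where Ncl, Npm1 and the box C/D genes were below it.

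Over the 9 group means (log2), Pearson's r between the 9 members other than Myc was 0.82 to 0.99 in their 36 pairs (median 0.97), and 0.90 or more in the 28 pairs without Polr1a. Myc had r of 0.61 to 0.83 with the other 9 (median 0.66). Mycn, its relative and no member here, had r of 0.77 to 0.97 with the same 9 genes (median 0.94). The values of each library share one scaling, and 9 means that fall into early, E10.5 and ES-derived groups are few, so these r describe the profiles only. Of 9285 genes with enough expression and spread, those most like the mean profile of the 9 members were Wdr46, Wdr43, D10Wsu102e, Ddx18, Rrp15, Nadk, Dis3 and Ddx21, with r of 0.993 to 0.995, of which Wdr46, Wdr43, Ddx18, Rrp15 and Ddx21 are in the assembly-factor list described next. Those most like Myc were Dennd5b (r = 0.97), Thap6 (0.94), Max (0.93), Rsad1 (0.91) and Otud4 (0.91).

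The members were set beside 135 other genes of ribosome assembly, listed by role from textbook knowledge: RNA polymerase I and its factors (14 genes besides the members), box C/D factors (9), box H/ACA factors (6), nucleolar proteins of several functions (7), and factors of the small (46) and the large subunit (53). The box H/ACA group includes Tcof1, which was listed there beside Nolc1 and is not a core protein of these particles. All 135 were tested in each comparison with limma, and p-values were adjusted (Benjamini-Hochberg) over all genes tested. Adjusted p had to be under 0.001 where ES–LBs were set against LBs and where stages were compared, and under 0.05 elsewhere. As this list was also written with earlier results of these data known, its counts are given beside those over all genes tested.

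Promoter sequences from 250 bases before to 50 bases after the start site, as RefSeq gives them on GRCm38.p6, were found for 7 of the 10 members and for 112 of the 135 assembly factors. Since most members had alike profiles, these were searched on both strands for 4 short motifs. The E-box CACGTG, the letters that Myc and Max bind, stood in 0 of the 7 member promoters, in 23 of 112 of the list (20.5%) and in 8.09% of all 27025 promoters, or 12.3% of those of the 8241 genes at a mean of 4 CPM or more. The ETS motif CCGGAAG stood in 1 of 7, in 42.9% of the list, in 20.5% of expressed genes and in 9.93% of all. The motif TCTCGCG stood in 1 of 7, 8.93%, 6.49% and 2.92%, and the NRF1 core GCATGCG in 0 of 7, 11.6%, 7.64% and 4.01%. A match is a description of letters and not a bound site, and a promoter window without one says nothing of the factor. The windows of the 2 members with a match are shown, and that of Wdr46, whose profile was most like the members, for its E-box. The Wdr46 promoter also holds the ETS motif as 2 overlapping matches, 1 on each strand, which begin 61 and 58 bases before the start site (not shown). Any part of these motifs in the profiles was not tested. Capitals mark the motif, and all 3 windows shown are on the plus strand.
Nolc1, chr19:46075806-46075846: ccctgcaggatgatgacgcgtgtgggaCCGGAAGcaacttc
Nop58, chr1:59684827-59684887: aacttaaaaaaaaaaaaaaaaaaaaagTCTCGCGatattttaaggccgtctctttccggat
Wdr46, chr17:33940684-33940722: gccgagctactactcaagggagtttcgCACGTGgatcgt

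ES–LBs were compared with the early LBs to see how the sorted cells in culture differ from the tissue that they resemble in type. Every member was lower in ES–FLB than in the early FLBs, with no overlap between libraries for 10 of 10 genes, as was also true of 41.6% of the 13113 genes tested. The log2 difference was −1.93 ± 0.03 (SE) for Ncl, −1.88 ± 0.05 for Dkc1 and −1.81 ± 0.03 for Npm1, the largest 3, and −0.94 ± 0.05 for Polr1a, the smallest. Myc was between, at −1.04 ± 0.08. ES–HLB was likewise below the early HLBs for 10 of 10 genes without overlap, beside 39.9% of the 13178 genes tested, from −1.56 ± 0.05 for Dkc1 to −0.44 ± 0.06 for Polr1a. The members' median was −1.53 for the forelimb type and −1.17 for the hindlimb type, and the median of all genes tested was 0.01 in both.

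Of the 135 assembly factors, 128 fell in ES–FLB and 0 rose (limma, threshold of 0.001), with a median of −1.07. At an unadjusted p under 0.05, 132 fell and 1 rose. Over all genes tested, 33.0% fell and 32.6% rose at the threshold. All 6 genes of the box H/ACA group fell, as did all 7 nucleolar proteins and 45 of 46 small subunit factors. So did 50 of 53 large subunit factors, 8 of 9 box C/D factors and 12 of 14 polymerase I factors. Npm3, a nucleophosmin relative, fell from 73.3 to 15.3 CPM (−2.23 ± 0.11, limma adjusted p = 8.71e-10), which was the largest change of the list. Gar1, Nhp2 and Nop10, the other core proteins of the particles that hold dyskerin, fell by 1.83, 1.77 and 1.53 on the log2 scale. Rrp12, a factor of the small subunit, fell by 1.79. Nhp2l1 (Snu13), the RNA-binding core protein of box C/D particles, fell by 1.29 and Tcof1, a nucleolar partner of Nolc1, by 1.17. The polymerase I factors Ubtf and Rrn3 fell less, by 0.60 and 0.45.

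In ES–HLB against the early HLBs, 120 of the 135 factors fell and 1 rose, with a median of −0.81, where 29.9% of all genes fell and 29.9% rose. Npm3 fell by 2.25 (adjusted p = 6.36e-09 by limma), Nop10 by 1.55 and Gar1 by 1.53. The gene that rose was Taf1c, a subunit of the polymerase I selectivity factor, from 20.8 to 28.2 CPM (0.42 ± 0.09, adjusted p = 0.000611 by limma). Rrn3, at −0.21 ± 0.05, did not pass the threshold here (limma adjusted p = 0.00169).

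**Figure D2:**
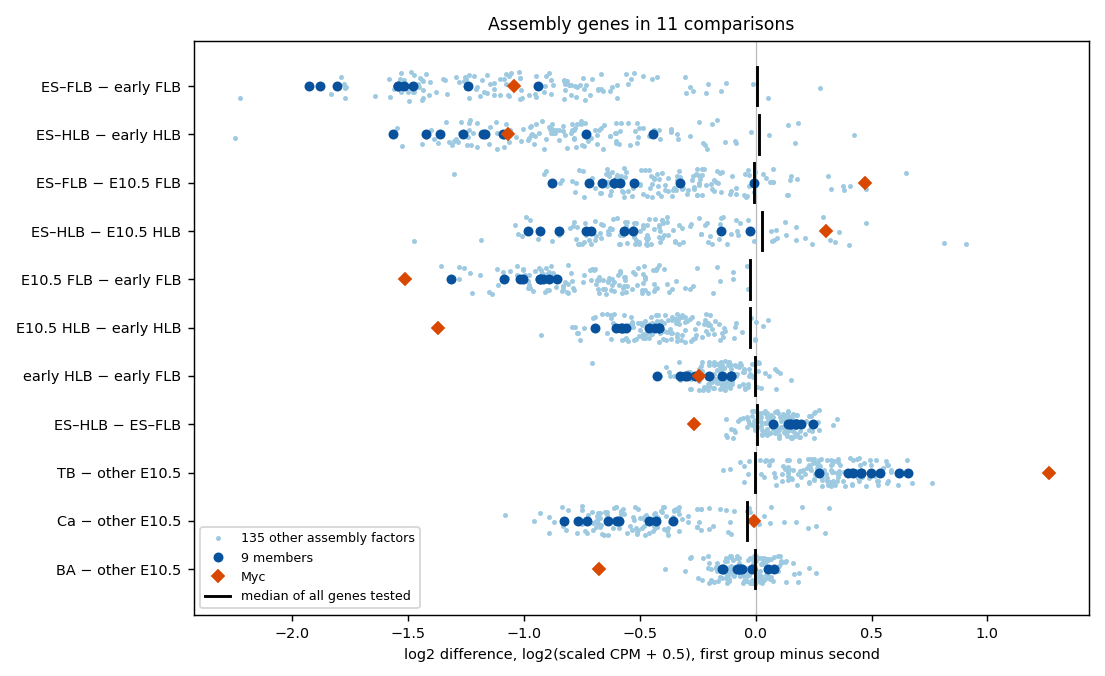
Log2 difference of scaled CPM + 0.5 (x axis, first group minus second) in 11 comparisons (rows), for the 9 members other than Myc (dark blue), Myc (orange diamonds) and 135 other assembly factors (light blue, spread vertically for display only), with a black bar at the median of all genes tested. All members and most of the list lie left of the bar in both comparisons of ES–LBs with early LBs, and Myc stands to the right of the other members where ES–LBs are compared with E10.5 LBs.

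The sorted ES–LB cells also differed from the dissected tissue in the cells they hold. Summed levels of 9 erythroid genes were 2308 to 6808 CPM in the early LB libraries, 9.50 to 10.9 CPM in ES–FLB and 93.9 to 174 CPM in ES–HLB. Those of 8 endothelial genes were 362 to 465 CPM in the early LBs and 28.7 to 51.1 CPM in the ES–LBs. Summed levels of 7 pluripotency genes were at most 1.76 CPM in the early LBs, 17.3 to 24.4 CPM in ES–FLB and 73.3 to 106 CPM in ES–HLB. Levels of 16 cell cycle genes summed to 6491 CPM ± 22 in the early FLBs and 6288 ± 53 in the early HLBs, and to 4198 ± 82 in ES–FLB and 4233 ± 74 in ES–HLB (SD, n = 3), and 14 and 15 of the 16 fell (limma). Summed levels of 8 epithelial genes were 341 to 476 CPM in the early LBs, 105 to 159 CPM in ES–FLB and 196 to 211 CPM in ES–HLB. By limma, 8 of 9 erythroid and 8 of 8 endothelial genes fell in each type, as did 5 and 6 of the 8 epithelial genes, and none of them was at 0 in all libraries of a type. The sums of 11 limb mesenchyme genes were 1580 CPM ± 25 across early FLBs and 2081 ± 42 in ES–FLB, and 1787 ± 29 across early HLBs and 2134 ± 23 in ES–HLB (SD, n = 3). In each type 4 of these genes rose by limma, while 5 fell in ES–FLB and 6 in ES–HLB. The part of these differences in the members' levels was not tested. Ca, which had low members as well, held the most erythroid RNA and had the lowest cell cycle sum, 4061 CPM ± 91.

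**Figure D3:**
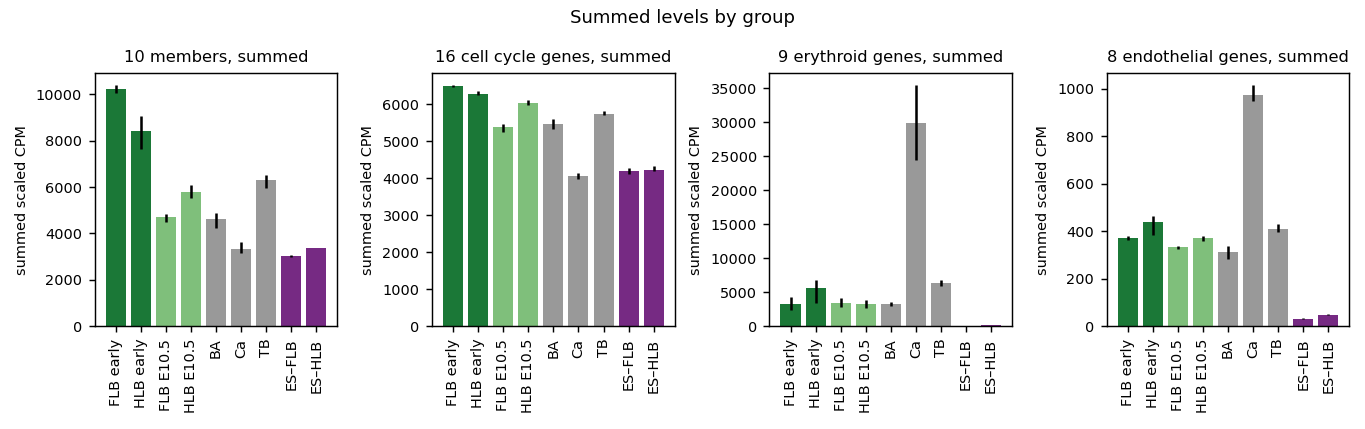
Summed scaled CPM (y axes, from 0) of the 10 members and of the cell cycle, erythroid and endothelial lists in the 9 groups, with bars at the mean and vertical lines from the lowest to the highest library. ES–FLB, ES–HLB and Ca are the 3 lowest groups for the members and for the cell cycle genes, while Ca is the highest and the ES–LBs are the lowest for the erythroid and endothelial lists.

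Against the E10.5 LBs the gap was smaller, and it was not shared by all members. In ES–FLB, 8 members lay below the E10.5 FLBs without overlap (37.4% of the 13174 genes tested did so), from −0.33 ± 0.08 for Polr1b to −0.88 ± 0.05 for Dkc1. Polr1a did not differ beyond the spread (−0.01 ± 0.05), and Myc was higher without overlap (0.47 ± 0.09), as 36.5% of genes were. In ES–HLB against the 2 E10.5 HLB libraries, 8 members again lay below without overlap (38.9% of 12912 genes), from −0.15 ± 0.08 for Polr1b to −0.98 ± 0.06 for Dkc1. Polr1a was at −0.03 ± 0.07 and Myc at 0.30 ± 0.10, higher without overlap, as 41.0% of genes were.

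Of the assembly factors, 83 fell and 5 rose in ES–FLB (median −0.34, where 52.6% of all genes passed and 26.6% fell), and 91 fell and 6 rose in ES–HLB (median −0.47, where 25.7% fell and 28.0% rose). Npm3 again fell most, by 1.30 and 1.48. Mdn1, a large ATPase that strips factors from the precursor of the large subunit, rose in both: from 114 to 180 CPM in ES–FLB (0.65 ± 0.05, adjusted p = 2.03e-12 by limma) and from 106 to 199 CPM in ES–HLB (0.91 ± 0.06, adjusted p = 2.11e-16 by limma). Others that rose were Nob1, the nuclease that finishes the small subunit RNA (0.41 and 0.40), Cirh1a (Utp4) in ES–FLB (0.48) and Taf1c in ES–HLB (0.81). With limma run without its variance trend and robust estimation the 2 totals of factors past the threshold were 40 and 31.

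The next comparison asked what changed as the limb buds grew out. All 10 members were lower in the E10.5 FLBs than in the early FLBs without overlap (36.8% of the 12767 genes tested were), from −1.51 ± 0.08 for Myc and −1.31 ± 0.04 for Ncl to −0.86 ± 0.04 for Fbl. In the HLBs all 10 were lower too without overlap (31.1% of 12400 genes), and the differences were −1.37 ± 0.10 for Myc, −0.69 ± 0.09 for Ncl and −0.42 ± 0.07 for Fbl and Polr1a. Myc had the largest difference of the 10 in both limb types. The left-out library of the E10.5 HLBs has values for 7 members, all below the lowest early HLB library, such as 1751 CPM for Ncl beside an early minimum of 2356 CPM, and 33.1 CPM for Myc beside 69.9 CPM.

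In the FLBs, 126 of the 135 factors fell with stage and 0 rose by limma, and 131 and 0 at an unadjusted p under 0.05 (median −0.69, where 22.9% of all genes fell and 18.6% rose). Mdn1 fell from 297 to 114 CPM (−1.36 ± 0.13, adjusted p = 0.000338 by limma), and Gnl3 (nucleostemin) and the helicase Ddx21 both fell by 1.28. In the HLBs 49 fell and 0 rose by limma, and 121 and 0 at an unadjusted p under 0.05 (median −0.39, where 2.75% fell and 1.85% rose), among them Ppan (−0.93 ± 0.07, adjusted p = 2.08e-05 by limma) and Cirh1a (−0.79 ± 0.07). This HLB count rested on single libraries: it was 79 without early HLB replicate 1, 14 without early HLB replicate 3 and 0 when either E10.5 HLB library was left out, which leaves 1 library in that group, assumed to vary like the early HLBs (117 and 112 fell at an unadjusted p under 0.05). Limma without trend and robust also called 0, with 117 at the unadjusted p, and all 26 libraries in one fit gave 86. The cell cycle sum was 5395 CPM ± 131 in the E10.5 FLBs (n = 3), and 13 of 16 cell cycle genes fell there, whereas 0 of 16 passed the threshold between HLB stages by limma (8 were lower and 2 higher at an unadjusted p under 0.05). By the stages in the paper the interval was longer for the FLBs than for the HLBs, and the HLB test had 2 E10.5 libraries. In members, factors and cell cycle genes, limb type therefore cannot be told apart from length of interval.

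Between the limb types, all 10 members were lower in the early HLBs than in the early FLBs without overlap (20.8% of 12503 genes tested were), by amounts from −0.11 ± 0.06 for Fbl to −0.42 ± 0.06 for Polr1a. Here 48 of 135 factors fell and 0 rose at an adjusted p of 0.05 by limma, and 80 and 0 at the unadjusted p (median −0.15, where 11.0% of all genes fell and 9.35% rose). They included Mdn1 (−0.71 ± 0.14, limma adjusted p = 0.0225) and Utp20, a scaffold of the small subunit precursor (−0.41 ± 0.06, limma adjusted p = 0.00104). The count was 24 without early FLB replicate 1, 28 without replicate 2, and 23 with limma run without trend and robust. By the stages in the paper the early HLBs were older than the early FLBs, so limb type and stage cannot be told apart here.

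In culture the order of the types was the other way. In ES–HLB, 8 members lay above ES–FLB without overlap (19.2% of 13132 genes), but by little: 0.25 ± 0.07 for Polr1b, 0.19 ± 0.05 for Nop56, 0.18 ± 0.03 for Ncl and 0.14 ± 0.03 for Npm1. Polr1a (0.07 ± 0.05) and Myc (−0.27 ± 0.09) overlapped. Of the list, 23 rose and 0 fell by limma, and 47 and 1 at an unadjusted p under 0.05 (median 0.09, where 25.1% of all genes passed and 13.1% rose), led by Rrp1b (0.35 ± 0.07, adjusted p = 0.000427 by limma) and Rcl1 (0.33 ± 0.09, adjusted p = 0.006 by limma). This count was 12 without ES–FLB replicate 1, 14 without ES–HLB replicate 3, 15 without ES–FLB replicate 2 and 15 without ES–HLB replicate 2. It was 5 with limma run without trend and robust. The erythroid and pluripotency sums given above were also higher in ES–HLB, and their part in these differences was not tested.

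The difference between culture and embryo was therefore compared between limb types in one model of 12 libraries. The gap of ES–HLB to the early HLBs was smaller than that of ES–FLB to the early FLBs for the 9 members other than Myc, by 0.26 ± 0.07 (Fbl) to 0.51 ± 0.10 (Polr1b), and the value for Myc was −0.02 ± 0.16. Of the list, 66 of 135 factors had a positive difference of gaps and 0 a negative one at an adjusted p of 0.05 (82 and 1 at the unadjusted p, limma, median 0.23), where 12.8% of all 13615 genes were positive and 9.96% negative. This contrast shares its libraries with the 2 comparisons above and restates them. As the paper stages the early HLBs later than the early FLBs, a difference of gaps by limb type cannot be told apart from one by stage of the embryonic reference.

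At E10.5, TB was set against the mean of the other 4 tissues. All 10 members had a higher fitted level in TB, from 0.27 ± 0.04 for Fbl to 0.66 ± 0.05 for Dkc1, and 1.26 ± 0.11 for Myc. For 8 of them the TB libraries were above those of every other E10.5 tissue (7.36% of 14438 genes tested), and Npm1 and Fbl overlapped the E10.5 HLBs. Of the factors, 113 rose and 0 fell by limma, and 116 and 1 at an unadjusted p under 0.05 (median 0.29, where 25.6% of all genes rose and 25.8% fell), led by the large subunit factor Rrs1 (0.76 ± 0.07, adjusted p = 1.17e-10 by limma), and the acetyltransferase Nat10 (0.67 ± 0.06, adjusted p = 5.5e-12 by limma).

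Ca stood at the other end. For 8 members its libraries were below those of every other E10.5 tissue (25.6% of all genes), with −0.83 ± 0.06 for Npm1 and −0.77 ± 0.05 for Dkc1, while Polr1a (−0.36 ± 0.05) and Myc (−0.01 ± 0.11) overlapped. Without Ca replicate 2, the library at 50.7 CPM, the value for Myc was −0.21. In Ca 117 factors fell and 7 rose (median −0.47, where 41.0% of all genes fell and 38.0% rose). Heatr1 (−1.08 ± 0.05, adjusted p = 1.58e-19 by limma) and Utp15 (−0.96 ± 0.05), both of the first complexes on the small subunit precursor, led those that fell, and Pih1d1 (0.32 ± 0.06) and Sbds (0.30 ± 0.06), which works at the last steps of the large subunit, led those that rose. Ca libraries also held 24367 to 35422 CPM of erythroid genes, and the part of blood in these values was not tested.

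BA was near the mean of the other tissues. The 9 members other than Myc were between −0.15 ± 0.05 (Dkc1) and 0.08 ± 0.04 (Nop56), and all overlapped other tissues. Myc was lower in every BA library than in any other E10.5 library, as 2.96% of all genes were, at −0.67 ± 0.11. Of the factors 30 fell and 8 rose (median −0.03, where 51.4% of all genes passed and 25.4% rose), but with CPM as deposited 22 rose and 15 fell, so no direction is given for the list in BA. Of the factors at 8 CPM or more in the higher group, Pak1ip1, a large subunit factor, was the one past the threshold with BA free of overlap with the other tissues (−0.39 ± 0.06, adjusted p = 1.8e-06 by limma).

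Myc acts in a network in which Mycn and Mycl1 are its relatives, Max is the shared partner, and the Mxd proteins, Mxi1, Mnt and Mga pair with Max and repress. Mycn was at 218, 217 and 200 CPM across early FLBs, 204, 207 and 214 CPM across early HLBs, 93.4, 96.6 and 100 CPM in the E10.5 FLBs and 118 and 114 CPM in the E10.5 HLBs. In ES–FLB it was at 31.5, 28.6 and 28.0 CPM and in ES–HLB at 61.3, 60.8 and 49.8 CPM. Both were below every embryonic library, of which those of Ca were the lowest, at 67.9 to 73.0 CPM. Mycn fell by 2.83 in ES–FLB against the early FLBs (adjusted p = 1.3e-15 by limma), by 1.86 in ES–HLB against the early HLBs, and by 1.70 and 1.02 against the E10.5 LBs. With stage it fell by 1.13 in FLBs and 0.84 in HLBs, and it did not pass the threshold between the early LB types (−0.02 ± 0.05, limma adjusted p = 0.799). It rose in TB (0.65 ± 0.05) and was higher in ES–HLB than ES–FLB (0.95 ± 0.08, adjusted p = 1.19e-10 by limma), whereas Myc overlapped between them.

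As Myc and Mycn differed in this way, the ratio of Myc to Mycn (both in scaled CPM, with no correction for length, compared only between groups) was 1.43 to 1.82 in the ES–FLB libraries and 0.571 to 0.772 in those of ES–HLB. In the embryonic groups its means ran from 0.270 in the E10.5 HLBs to 0.550 in Ca. The ES–FLB libraries were above all others, and those of ES–HLB overlapped Ca, where 1 library was at 0.747.

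Several repressors went the other way from Mycn. In ES–FLB, Mxd4 was at 39.7, 44.0 and 43.5 CPM, and in the early FLBs at 7.67, 7.14 and 7.65 CPM (2.42 ± 0.09, adjusted p = 5.63e-13 by limma). Mxd3 (1.85 ± 0.12), Mxd1 (0.95 ± 0.10), Mxi1 (0.95 ± 0.09) and Mga (0.40 ± 0.07) also rose there, and Max fell (−0.54 ± 0.06). ES–HLB against the early HLBs gave the same calls for these 6 genes, with 2.14 for Mxd4, 0.69 for Mxd3, 0.77 for Mxd1, 0.54 for Mxi1, 0.78 for Mga and −0.41 for Max. Mnt did not pass the threshold in either (0.22 ± 0.08 and 0.25 ± 0.08). Mycl1 rose in ES–FLB (0.39 ± 0.08) and fell in ES–HLB (−0.77 ± 0.07). Mlx and Mlxip, the other genes of the network list, had lower means in both ES–LB types. For Mlx these were 37.1 CPM in the early FLBs, 30.2 in ES–FLB, 35.1 in the early HLBs and 29.1 in ES–HLB. For Mlxip they were 114, 84.3, 109 and 87.7 CPM in the same order.

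Between the FLB stages Mxd4 (1.56 ± 0.11), Mxd3 (1.29 ± 0.14) and Mxd1 (0.90 ± 0.10) rose as well, while the HLB values of 0.70 ± 0.18, 0.53 ± 0.16 and 0.52 ± 0.15 did not pass the threshold of 0.001. The FLB interval was the longer by the stages in the paper. In TB Max rose (0.48 ± 0.05) and Mxd1 fell (−0.63 ± 0.09). In Ca, Mycl1 fell from a mean of the other tissues to 5.35, 8.88 and 14.5 CPM (−3.11 ± 0.16), Mycn fell (−0.64 ± 0.05) and Mxd4 rose (0.57 ± 0.09).

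**Figure D4:**
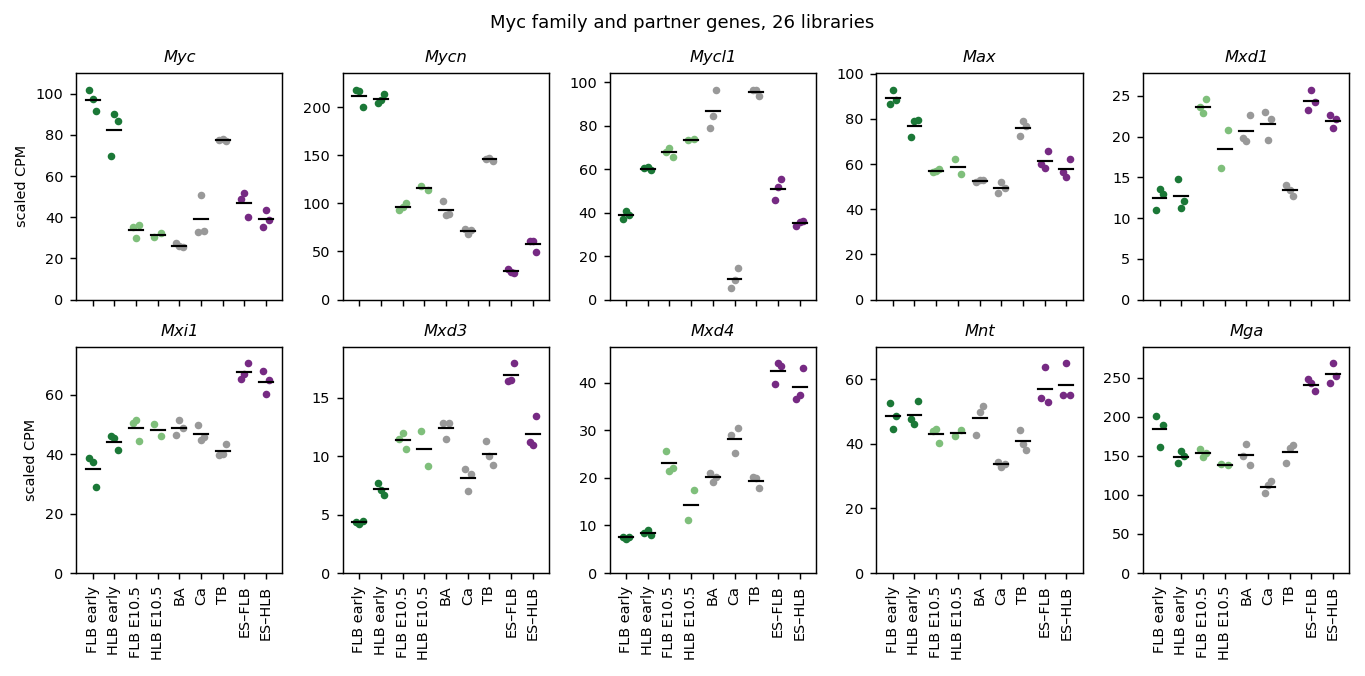
Scaled CPM (y axis, linear, from 0, own range in each panel) of Myc and 9 genes of its network in 26 libraries, 1 point for each library and a line at the group mean, coloured as in the plot of the members. Mycn is lowest in ES–FLB, and Mxd4 runs from 7.14 CPM in an early FLB library to 44.0 CPM in an ES–FLB library.

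Some features of the members could bear on the counting of their reads. Among them 4 (Ncl, Nop56, Nop58 and Dkc1) hold 13 snoRNA genes in GENCODE, a trait of genes of the translation machinery, of which 6 are listed in the table, with at most 0.0476 CPM in any library. Of protein-coding genes on the other strand, Nop56 overlaps the end of Idh3b by 5 bases and Dkc1 that of Mpp1 by 45 bases. Polr1a shares more bases than either with genes on the other strand that code for no protein, a processed pseudogene and an antisense gene. The part of these overlaps in the levels of the members, Polr1a among them, was not tested. The strand setting of the counting was not given in the sources used here.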

How the data were processed

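RNA of 27 libraries (9 groups of 3, from the labels) was sequenced single-end from stranded mRNA libraries. The authors mapped reads with HISAT2 2.0.4 to mm10, quantified genes with Cuffdiff (Cufflinks 2.1.1 in the submitters' processing notes) and used edgeR 3.16.2. They deposited CPM, which sum to 1000000 per library over 23279 genes. Depth was estimated from the spacing of low values. Floors of 3 reads cover counting error only, as reads without molecular identifiers are not independent molecules.

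CPM were scaled by an unweighted trimmed mean of log ratios (trims of 30% and 5%) over 26 libraries. Genes reaching 1 CPM in 3 or more of the compared libraries were fitted on log2(CPM + 0.5) with limma 3.58.1 (trend, robust) in R 4.3.3. Each comparison used the libraries of its groups, and the contrasts of E10.5 tissues all 26. Figures and profiles were made with Python 3.11.15. Some of the fits were also run on simulated data with few changed genes and a single setting of spread. Such data differ from the real libraries, so they do not vouch for the counts given here. The members, lists and thresholds were chosen with earlier results of these data known.

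Named were all members, the Myc network, partner genes (Npm3, Tcof1, Nop10, Nhp2, Gar1, Snu13, Ubtf, Rrn3), up to 3 factors per direction and comparison (past the threshold, 8 CPM or more in the higher group, no overlap), and genes of the most similar profile (mean of 4 CPM or more, SD of 0.2 or more). Alternatives were other scalings, pseudocounts, filters, limma without trend and robust, a replicate block, all libraries in one fit, the truncated library, and each replicate left out. Gene positions and promoters are from RefSeq, and snoRNA genes and overlaps between genes from GENCODE.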

Additional observations from a re-analysis of the deposited data

Results flagged for a closer look

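The gap between culture and embryo differed between limb types in a test of the difference itself (ES–HLB minus early HLBs against ES–FLB minus early FLBs, limma on 12 libraries, adjusted p of 0.05). The difference was positive at this threshold for 66 of 135 assembly factors, where 12.8% of all 13615 genes tested were positive and 9.96% negative. The fitted value was also above 0 for 9 members, given as a description only and not as a test. Of 39 named genes that are no members, 19 passed, 16 of them positive. Some factors were named for the size of their change in the comparisons that make up this contrast, such as Rrp1b and Mdn1. Their passing and its sign are therefore not independent of that choice, and the count is given as a description only. In the Myc network Mycn (0.97), Mga (0.38), Mxd3 (−1.16), Mycl1 (−1.16) and Mxi1 (−0.41) passed. Among the partners, so did Nhp2 (0.33), Gar1 (0.31), Tcof1 (0.29) and Rrn3 (0.23). Of the other named factors, Mdn1 (0.85), Nat10 (0.60), Utp20 (0.57), Rrp1b (0.57), Rrp12 (0.56), Heatr1 (0.55), Ddx21 (0.54), Ppan (0.51), Rcl1 (0.45) and Gnl3 (0.36) passed. For the partners and other factors named here, the fitted difference of early HLBs minus early FLBs was below 0 and that of ES–HLB minus ES–FLB above 0, so both sides of the contrast enter the value. The early HLBs were older than the early FLBs by the stages in the paper, so limb type and stage of the reference cannot be told apart in this contrast.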

How the results depend on the processing

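Of 210 list counts under alternatives, 191 stayed within 1.5 times the reported count with the same direction. With CPM as deposited, the BA count turned from mostly lower to mostly higher (37 past the threshold), and without BA replicate 3 it was 22, with a range of 22 to 41 over replicates left out. Limma without trend and robust gave 40 for ES–FLB and 31 for ES–HLB against E10.5 LBs, 0 between HLB stages, 5 between ES–LB types and 23 between early LB types. Between HLB stages the count was 8 with no filter, 86 with all 26 libraries in one fit and 0 to 79 over replicates left out. Leaving out replicates gave 12 to 22 between ES–LB types and 24 to 51 between early LB types. The cause was not tested. CPM as deposited moved the median of all genes by 0.22 and 0.16 in ES–FLB and ES–HLB against early LBs, 0.10 in ES–HLB against E10.5 HLBs, 0.16 between FLB stages and −0.10 in Ca.

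Whether replicate numbers pair the samples is not known. Deviations from the group mean correlated little between libraries of the same number, and no comparison had r above 0.1 in every pair. Between the ES–LB types r was 0.069, 0.078 and 0.063, which does not exclude pairing. With the number as a block, the counts were 129, 120, 88, 99, 126, 73, 34, 44, 113, 124, 39 and 62 in the order ES–FLB and ES–HLB against early LBs, the same against E10.5 LBs, FLB and HLB stages, ES–LB types, early LB types, TB, Ca, BA and the difference of gaps. Of 2100 member differences under alternatives 85 moved by more than the spread, 62 of them with CPM as deposited, and 25 changed sign, each from a value of at most 0.072 in size, such as Polr1b without BA replicate 2 (0.03) and Npm1 without BA replicate 3 (0.01). The E10.5 LBs were the least deep libraries.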

Other observations

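Some assembly factors did not pass the threshold for a fall in the ES–LBs. Of the 135, 120 fell in both types against the early LBs (limma, adjusted p of 0.001), 8 in ES–FLB but not in ES–HLB, 0 in ES–HLB alone and 7 in neither. Passing in one type and not in the other does not show that the types differ. The genes below were picked after their values were seen. The 7, of which Taf1c rose in ES–HLB, were Taf1a and Taf1c of the polymerase I selectivity factor, the nuclease Nob1, the ATPases Mdn1 and Nvl, the GTPase Eftud1 (Efl1) and Pih1d1, which helps to assemble box C/D particles. Their log2 differences ran from −0.71 ± 0.13 (Mdn1) to 0.28 ± 0.09 (Taf1c) in ES–FLB and from −0.09 ± 0.09 (Pih1d1) to 0.42 ± 0.09 (Taf1c) in ES–HLB. In ES–FLB, Eftud1, Mdn1, Nvl and Nob1 were lower at limma adjusted p of 0.00204, 0.00346, 0.0269 and 0.0283, short of the threshold. Taf1c was higher there (limma adjusted p = 0.00851), while Pih1d1 (−0.01 ± 0.07) and Taf1a (0.05 ± 0.09) lay within their spread. The 8 that passed in ES–FLB alone included Utp20 (−0.66 ± 0.05 in ES–FLB and −0.09 ± 0.06 in ES–HLB), Naf1, which assembles box H/ACA particles (−0.74 ± 0.07 and −0.17 ± 0.10), and Taf1d, another subunit of the selectivity factor (−0.62 ± 0.06 and −0.24 ± 0.07). Others of the 8, such as Nsa2 (−0.21 ± 0.05 and −0.22 ± 0.05) and Tbp (−0.30 ± 0.06 and −0.33 ± 0.08), had like differences in both types.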
